A study of Zea mays with 48 samples.

Results

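LOX8, LOX9, LOX10 and LOX11 are the maize 13-lipoxygenases followed here in leaves with and without spider mites. They were chosen by identifier, Zm00001d003533 for LOX8, Zm00001d027893 for LOX9, Zm00001d053675 for LOX10 and Zm00001d015852 for LOX11, which makes 4 of the 46272 features in the deposited count table. The table holds identifiers only, so the names rest on the list that chose the genes. All 4 were counted in each of the 48 libraries and passed the filter on low counts in every fit.

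13-Lipoxygenases are plastid enzymes that add oxygen to linolenic and linoleic acid at the thirteenth carbon. The hydroperoxide they make is shared by branches of oxylipin metabolism. Allene oxide synthase leads it towards jasmonates, the hormones of wounding and herbivory, and hydroperoxide lyase leads it towards green leaf volatiles, the short aldehydes, alcohols and esters that damaged leaves release. LOX8, also called TS1 for tasselseed1, is known for jasmonate synthesis in the tassel, where it is needed for male flowers. LOX10 is known for the supply of green leaf volatiles in leaves. LOX11 is a close homologue of LOX10, so reads that fit both copies cannot be assigned with certainty and the LOX11 values are uncertain to that extent. LOX9 belongs to the same class of enzymes. Whether reads are also shared between other pairs of these genes, such as LOX8 and LOX9, was not tested.

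The leaf libraries come from 2 experiments, each with B73, a second inbred and their F1. B73 is the inbred that the maize reference genome was made from. Resistance to spider mites is known from the inbreds B96 and B75. Controls were sections of leaf 4 of plants aged 22 days with a wax barrier and no mites, and infested sections carried 200 adult females of Tetranychus urticae for 24 h. The B96 experiment holds control and infested B73 (replicates 1 to 4), B96 and the F1 of both, called the B96 F1 here. In the B75 experiment the same layout applies to B73 (replicates 5 to 8), B75 and the F1 of both, called the B75 F1. Each of the 12 groups has 4 libraries. How many plants stand behind a library is not given in the sources used here, so a p-value covers only the spread among these libraries. The labels state a randomized block layout, but how much of that spread is technical was not tested.

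Total gene counts were 12.5 to 20.9 M per control library and 9.98 to 16.6 M per infested library. Behind the values stand 206 to 1478 counts per library for LOX8, 72 to 771 for LOX9, 53176 to 299475 for LOX10 and 24 to 345 for LOX11, so counting error is widest for LOX11. Levels are counts per 1 M counts of the scaled library size (CPM), given as mean ± SD of 4 libraries. They are not per length, and levels are therefore compared between groups and not between genes. Reads of every line were counted on B73 sequence, and the part that loss of reads from other alleles has in a difference between lines was not tested. In whole leaf sections, fewer cells of a type and less RNA per cell cannot be told apart. Replicate 4 of the B96 F1 stood apart for several of these genes, both in its control and its infested library, and results that rest on it are also given without both libraries, an alternative chosen after the data were seen.

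At least 3 of the 4 13-lipoxygenases rose with mites in each of the 6 sets of plants, which are B73 of either experiment, B96, B75 and the F1s. The fold change was largest for LOX9 in both sets of B73 plants, in B96 and in the B96 F1, and largest for LOX11 in B75 and, closely followed by LOX9, in the B75 F1. Of 24 mite responses, 4 genes in 6 sets of plants, all had a positive fold change and 23 passed the threshold of an adjusted p under 0.05 (edgeR's quasi-likelihood test, Benjamini-Hochberg over all features of a fit). The exception was LOX10 in B73 of the B96 experiment. LOX9 rose 2.58- to 4.73-fold, LOX11 1.87- to 4.73-fold, LOX8 1.61- to 2.46-fold, and LOX10, where it passed the threshold, 1.46- to 2.79-fold.

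In B73 of the B96 experiment 3 of the 4 genes rose, against 16.3% of all features tested. All 4 rose in B96, where the share of all features was 24.8%, and in the B96 F1, where it was 20.3%. The B75 experiment gave 4 of 4 for B73 beside 18.3% of all features, 4 of 4 for B75 beside 21.7%, and 4 of 4 for the B75 F1 beside 22.4%. The median log2 fold change of the 4 genes was 0.86 for B73, 1.38 for B96 and 1.14 for the B96 F1, where the median of all features lay between -0.03 and 0. In the B75 experiment the corresponding medians were 0.88 for B73, 1.51 for B75 and 1.38 for the B75 F1, with all features again between -0.03 and 0.

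**Figure D1:**
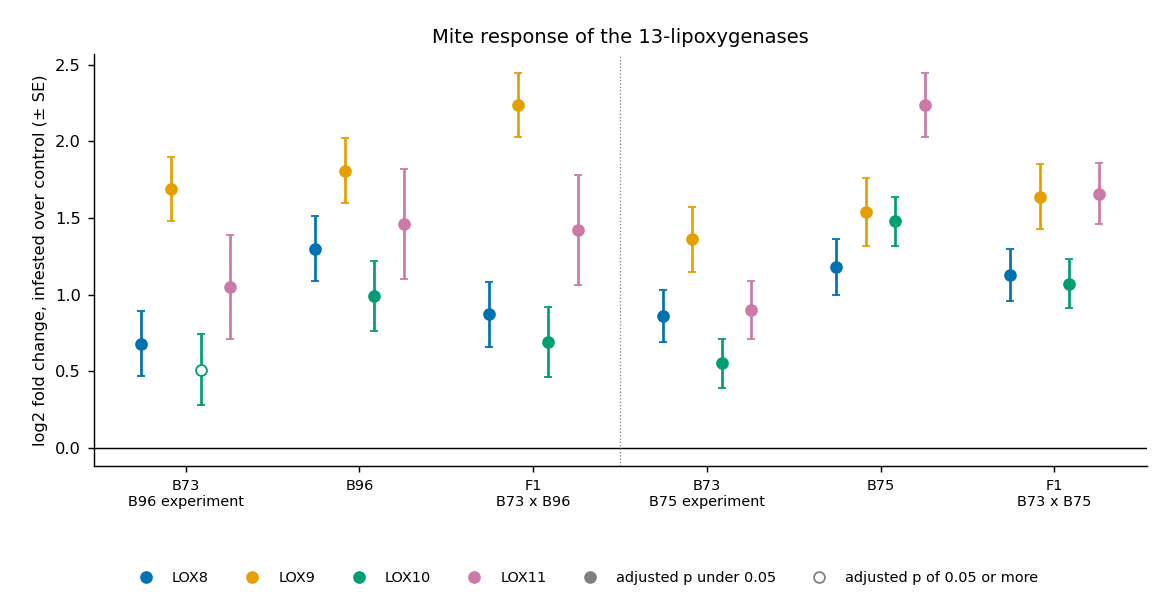
Mite responses of the 4 genes as log2 fold change of infested over control leaves, with SE bars, in each of the 6 sets of plants (B73 of either experiment, B96, B75 and the F1s). All 24 points lie above 0, and the open point, LOX10 in B73 of the B96 experiment at 0.51 ± 0.23, is the only one that missed the threshold.

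LOX10, the lipoxygenase of green leaf volatile synthesis, took 0.364 to 0.992% of all gene counts in control and 0.776 to 1.93% in infested libraries. In control leaves of B73 in the B96 experiment it stood at 7167, 7609.97, 7819.87 and 7153 CPM, and in infested leaves at 8019, 10000.2, 11227 and 12431 CPM. B96 had 9294, 10967, 6935 and 9234 CPM without mites and 19844, 17819.8, 16589 and 18448 CPM with them. The B96 F1 had 6592, 6707, 7919.71 and 11511 CPM without mites and 10849.9, 11831, 11951 and 19036 CPM with them. Infested B96 and replicate 4 of the infested F1 held the 5 highest values, and only in the F1 did control and infested libraries overlap, through control replicate 4.

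The means of LOX10 were 7438 ± 332 and 10419 ± 1883 CPM in control and infested B73, a 1.42-fold difference that missed the threshold (log2 fold change 0.51 ± 0.23, edgeR adjusted p = 0.11). DESeq2 put it just past the threshold (0.48, adjusted p = 0.048), as did edgeR in a single fit of all 48 libraries (0.49, adjusted p = 0.047). In B96, LOX10 rose from 9107 ± 1656 to 18175 ± 1354 CPM, 1.98-fold (0.99 ± 0.23, edgeR adjusted p = 0.0012). In the F1 it rose from 8182 ± 2299 to 13417 ± 3778 CPM, 1.61-fold (0.69 ± 0.23, edgeR adjusted p = 0.021). Without both replicate 4 libraries of the F1 the log2 change was 0.69 (edgeR adjusted p = 0.016). Without only the infested one of them it was 0.46 and missed the threshold (edgeR adjusted p = 0.11), and the call was also lost without F1 control replicate 1 or 2 (edgeR adjusted p = 0.07 each). A fit of the groups compared alone gave 0.71 and no call (edgeR adjusted p = 0.11).

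In the B75 experiment LOX10 showed no overlap between control and infested libraries in any of its plants. Uninfested B73 had 8267, 6337, 6147 and 5935 CPM, and infested B73 had 10337, 10295, 9889 and 9391 CPM. B75 started lower, at 5025, 4034, 3787 and 3779 CPM, and reached 10999, 11458, 14661 and 10098 CPM with mites. LOX10 in the B75 F1 went from 5478, 7168, 6218 and 4711 CPM to 13935, 13654, 12442 and 11682 CPM. B75 held the 3 lowest control values, its remaining library overlapped the uninfested B75 F1, and with mites 3 of its 4 libraries lay above all infested B73 libraries.

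LOX10 rose 1.46-fold in B73 of this experiment, from 6672 ± 1076 to 9978 ± 440 CPM (log2 0.55 ± 0.16, edgeR adjusted p = 0.009). The rise in B75 was 2.79-fold, from 4156 ± 591 to 11804 ± 1987 CPM (1.48 ± 0.16, edgeR adjusted p = 2.2e-07). In the B75 F1 it was 2.10-fold, from 5894 ± 1049 to 12929 ± 1053 CPM (1.07 ± 0.16, edgeR adjusted p = 1.3e-05). Among the 12 groups LOX10 was lowest in uninfested B75 and highest in infested B96, and each pair of neighbours in that order overlapped.

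LOX11, the close homologue of LOX10, showed the widest differences between lines before infestation. Uninfested B73 of the B96 experiment had 9.83, 10.3, 13.8 and 13.5 CPM, and infested B73 had 17.5, 23.5, 25.3 and 30.3 CPM. B96 had 4.22, 8.13, 3.39 and 5.52 CPM without mites and 18.4, 15.5, 12.3 and 12.9 CPM with them. For the B96 F1 the values were 4.26, 3.45, 3.05 and 11.8 CPM without mites and 9.47, 12.8, 14.04 and 24.98 CPM with them. Each uninfested B96 library lay below each uninfested B73 library, and the F1 control and infested libraries overlapped through control replicate 4.

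Mean LOX11 rose from 11.9 ± 2.09 to 24.2 ± 5.31 CPM in B73, 2.06-fold (log2 1.05 ± 0.34, edgeR adjusted p = 0.026). That call was lost when control replicate 1 (edgeR adjusted p = 0.064), control replicate 2 (0.072), infested replicate 3 (0.053) or infested replicate 4 (0.079) was left out. In B96 LOX11 rose from 5.31 ± 2.07 to 14.8 ± 2.82 CPM, 2.75-fold (1.46 ± 0.36, edgeR adjusted p = 0.002). In the F1 it rose from 5.64 ± 4.13 to 15.3 ± 6.72 CPM, 2.68-fold (1.42 ± 0.36, edgeR adjusted p = 0.003). The size of that rise turned on replicate 4, with a log2 change of 2.07 without the control library (edgeR adjusted p = 2.8e-05), 1.08 without the infested library (0.02) and 1.73 without both (6.9e-05).

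The B75 experiment gave LOX11 values of 9.66, 7.62, 10.8 and 6.6 CPM in uninfested B73 and 19.8, 17.5, 14.8 and 13.9 CPM in infested B73. B75 had 2.93, 1.82, 3.33 and 2.71 CPM without mites and 10.2, 10.4, 18.7 and 13.3 CPM with them. The B75 F1 had 4.88, 4.13, 6.22 and 4.28 CPM without mites and 16.4, 15.4, 15.7 and 16.7 CPM with them. Control and infested libraries were apart in all 3 genotypes, uninfested B75 lay below every other control library of its experiment, and the F1 controls lay between those of the parents.

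LOX11 thus rose 1.87-fold in B73, from 8.66 ± 1.89 to 16.5 ± 2.69 CPM (log2 0.90 ± 0.19, edgeR adjusted p = 8e-04). In B75 it rose 4.73-fold, from 2.70 ± 0.637 to 13.1 ± 3.99 CPM (2.24 ± 0.21, edgeR adjusted p = 2.4e-08). The F1 rose 3.16-fold, from 4.88 ± 0.95 to 16.1 ± 0.61 CPM (1.66 ± 0.20, edgeR adjusted p = 7.4e-07). Across the 12 groups LOX11 was highest in infested B73 of the B96 experiment and lowest in uninfested B75. Uninfested B75 did not overlap its next neighbour, the uninfested B75 F1, and all other neighbours in the order overlapped. Replicate 3 of the uninfested B96 F1, further up the order by its group mean, lay within the range of uninfested B75 at 3.05 CPM.

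**Figure D2:**
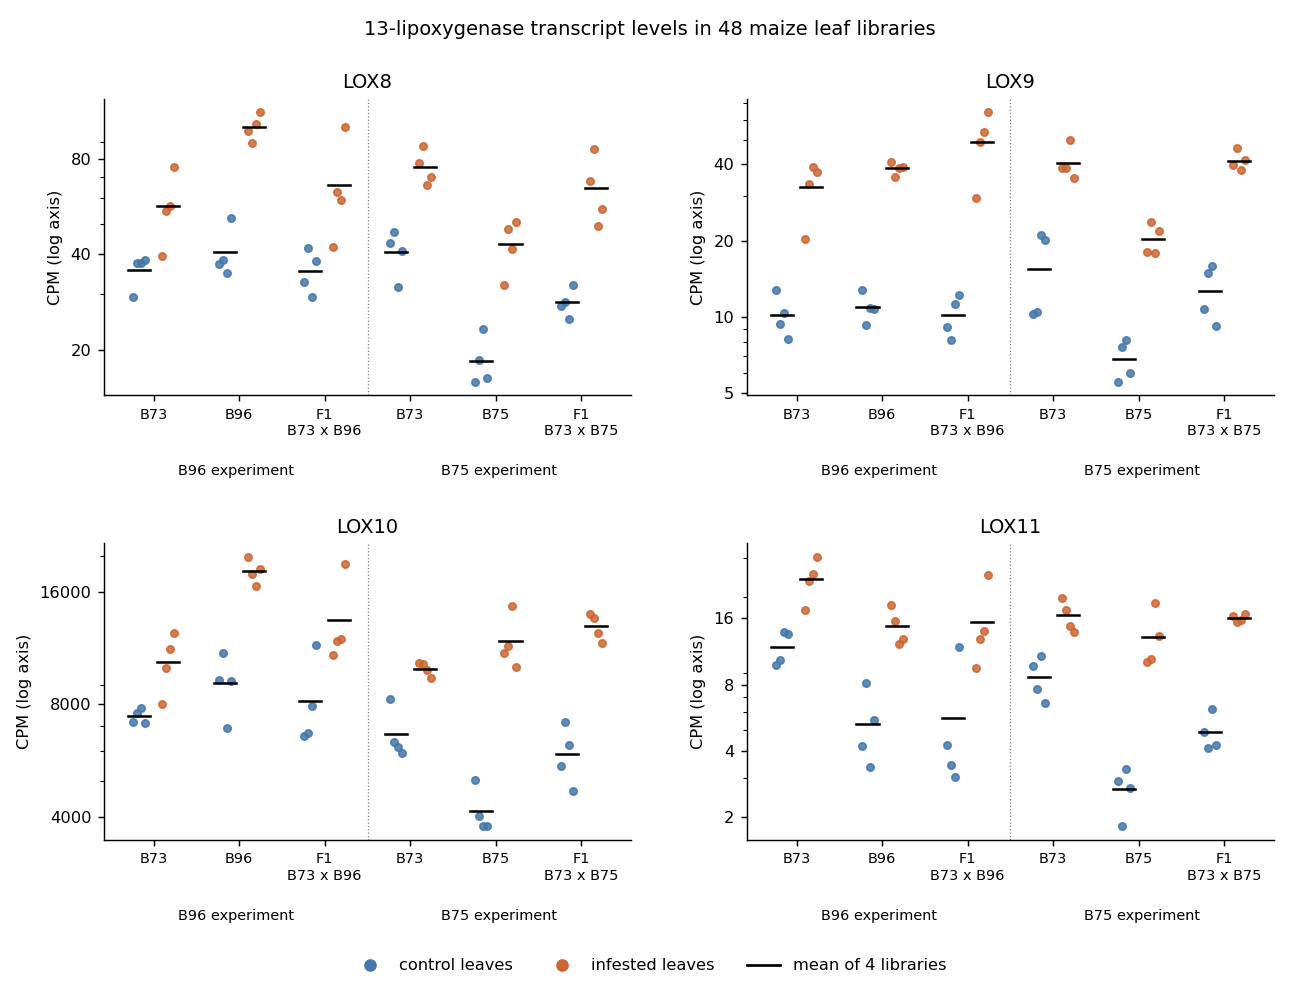
Levels of LOX8, LOX9, LOX10 and LOX11 in CPM, on a log axis of its own for each gene, in each of the 48 libraries (points) with the mean of each group of 4 as a bar, control beside infested leaves. All 4 genes are lowest in uninfested B75, and replicate 4 of the B96 F1 stands above its group for LOX10 with mites (19036 CPM) and for LOX11 without them (11.8 CPM).

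LOX8, the jasmonate-forming enzyme known as tasselseed1, had group means of 18.5 to 40.7 CPM in uninfested leaves and reached its highest level in infested B96. B73 of the B96 experiment had 29.3, 37.6, 37.6 and 38.3 CPM without mites and 39.6, 54.9, 56.9 and 75.2 CPM with them. B96 had 37.3, 38.5, 34.8 and 51.9 CPM without mites and 97.9, 89.4, 103 and 112 CPM with them. The B96 F1 had 32.8, 41.8, 29.4 and 38.1 CPM without mites and 42.2, 62.8, 59.3 and 101 CPM with them. Control and infested libraries did not overlap in these genotypes, but in B73 and the F1 the gap between them was narrow, and B96 alone was far from its controls in all 4 libraries.

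LOX8 rose 1.61-fold in B73, from 35.7 ± 4.27 to 56.6 ± 14.6 CPM (log2 0.68 ± 0.21, edgeR adjusted p = 0.019). That call was lost without control replicate 1 (edgeR adjusted p = 0.057) or infested replicate 4 (0.091). The rise in B96 was 2.46-fold, from 40.6 ± 7.70 to 101 ± 9.47 CPM (1.30 ± 0.21, edgeR adjusted p = 2.4e-05). In the F1 it was 1.83-fold, from 35.5 ± 5.51 to 66.2 ± 24.7 CPM (0.87 ± 0.21, edgeR adjusted p = 0.002), and without both replicate 4 libraries the log2 change was 0.64 (edgeR adjusted p = 0.02).

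In the B75 experiment uninfested B75 had the lowest LOX8 values. Uninfested B73 had 43.4, 46.99, 31.6 and 40.97 CPM, and infested B73 had 77.5, 87.7, 66.0 and 69.9 CPM. B75 went from 15.9, 18.6, 23.3 and 16.3 CPM to 31.96, 48.0, 41.6 and 50.5 CPM. The B75 F1 went from 27.6, 28.3, 25.1 and 31.98 CPM to 68.1, 85.6, 49.2 and 55.5 CPM. No control library overlapped the infested libraries of its genotype, and uninfested B75 lay below both other control groups. Infested B75 averaged 42.999 ± 8.25 CPM and uninfested B73 averaged 40.7 ± 6.57 CPM.

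The log2 rise of LOX8 was 0.86 ± 0.17 in B73 of the B75 experiment, 1.81-fold to 75.3 ± 9.55 CPM (edgeR adjusted p = 0.00047). B75 rose 2.26-fold from 18.5 ± 3.41 CPM (1.18 ± 0.18, edgeR adjusted p = 1.5e-05), and the F1 2.19-fold from 28.2 ± 2.86 to 64.6 ± 16.1 CPM (1.13 ± 0.17, edgeR adjusted p = 1.8e-05). In the order of the 12 groups, uninfested B75 was lowest and did not overlap the uninfested B75 F1 above it. Infested B96 was highest and did not overlap infested B73 of the B75 experiment below it, while the neighbours in between overlapped.

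LOX9, a further 13-lipoxygenase, had group means of 6.82 to 15.5 CPM in uninfested leaves and rose in all 6 sets of plants without any overlap of control and infested libraries. Uninfested B73 of the B96 experiment had 12.7, 9.39, 10.4 and 8.2 CPM, and infested B73 had 20.3, 33.4, 38.9 and 37.5 CPM. B96 went from 12.7, 9.3, 10.8 and 10.8 CPM to 40.9, 35.7, 38.6 and 39.1 CPM. The B96 F1 went from 9.11, 8.09, 11.3 and 12.2 CPM to 29.4, 48.8, 53.5 and 64.2 CPM. The control groups of this experiment were nearly level, and the F1 spread most with mites.

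The fold rise of LOX9 was 3.22 in B73, from 10.2 ± 1.93 to 32.5 ± 8.49 CPM (log2 1.69 ± 0.21, edgeR adjusted p = 3.5e-06). It was 3.52 in B96, from 10.9 ± 1.41 to 38.6 ± 2.14 CPM (1.81 ± 0.21, edgeR adjusted p = 4.2e-07). In the B96 F1 it was 4.73, from 10.2 ± 1.90 to 49.0 ± 14.6 CPM (2.24 ± 0.21, edgeR adjusted p = 3.6e-08), and the log2 change without both replicate 4 libraries was 2.19.

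LOX9 in the B75 experiment had control values of 10.3, 10.5, 21.1 and 20.1 CPM in B73 and infested values of 38.7, 38.6, 50.1 and 35.4 CPM. The 4 uninfested B73 libraries fell into 2 low and 2 high ones. B75 had 5.55, 7.59, 8.12 and 6.03 CPM without mites and 18.1, 23.7, 17.9 and 21.8 CPM with them. The B75 F1 had 10.8, 14.9, 16.0 and 9.18 CPM without mites and 39.6, 46.3, 38.1 and 41.5 CPM with them. B75 was below B73 and the F1 in both treatments, with no shared range.

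The rise of LOX9 was 2.58-fold in B73, from 15.5 ± 5.92 to 40.7 ± 6.45 CPM (log2 1.36 ± 0.21, edgeR adjusted p = 3.1e-05). B75 rose 2.91-fold, from 6.82 ± 1.22 to 20.4 ± 2.84 CPM (1.54 ± 0.22, edgeR adjusted p = 9.9e-06). The F1 rose 3.12-fold, from 12.7 ± 3.24 to 41.4 ± 3.54 CPM (1.64 ± 0.21, edgeR adjusted p = 2.3e-06). Uninfested B75 was the lowest of the 12 groups and the infested B96 F1 the highest, and every pair of neighbours in this order overlapped.

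Relative to LOX10, LOX9 and LOX11 had higher mean ratios in infested than in control leaves of all 6 sets of plants, but no ratio passed the test after adjustment. The ratio of 2 genes within a library does not depend on how libraries are scaled, and it was taken as the log2 ratio of counts with 0.5 added. The mean LOX9 to LOX10 ratio was higher with mites by 1.18 in B73, 0.81 in B96 and 1.51 in the F1 of the B96 experiment, and by 0.87 in B73, only 0.08 in B75, and 0.59 in the F1 of the B75 experiment. Control and infested libraries were apart in 5 of these 6, each with p = 0.0286 in an exact two-sided permutation test, the lowest value possible for 4 libraries a group. In B75, where LOX10 itself rose 2.79-fold, they overlapped (exact permutation p = 0.743). None of the 36 ratio tests passed after Benjamini-Hochberg adjustment, for which the smallest exact permutation p became 0.0735. As no p could be lower than 0.0286, none could pass unless more tests than the 14 that reached it had done so. The missed threshold is therefore no sign that the ratios stayed the same.

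The mean LOX11 to LOX10 ratio was higher with mites by 0.35 to 0.86 on the log2 scale. It had means of -9.30 and -8.76 in control and infested B73 of the B96 experiment, -10.79 and -10.28 in B96, and -10.69 and -9.83 in the B96 F1. The B75 experiment gave -9.60 and -9.25 in B73, -10.60 and -9.84 in B75, and -10.23 and -9.65 in the B75 F1. The libraries were apart in B73 of the B96 experiment, in B75 and in the B75 F1, and overlapped in the other 3 sets of plants. The LOX9 to LOX8 ratio was higher with mites by 0.37 to 1.39, with no overlap in 4 of 6 sets of plants. LOX8 against LOX10 changed by -0.29 to 0.31 and overlapped in all 6, as did LOX11 against LOX9, at -0.65 to 0.68.

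**Figure D3:**
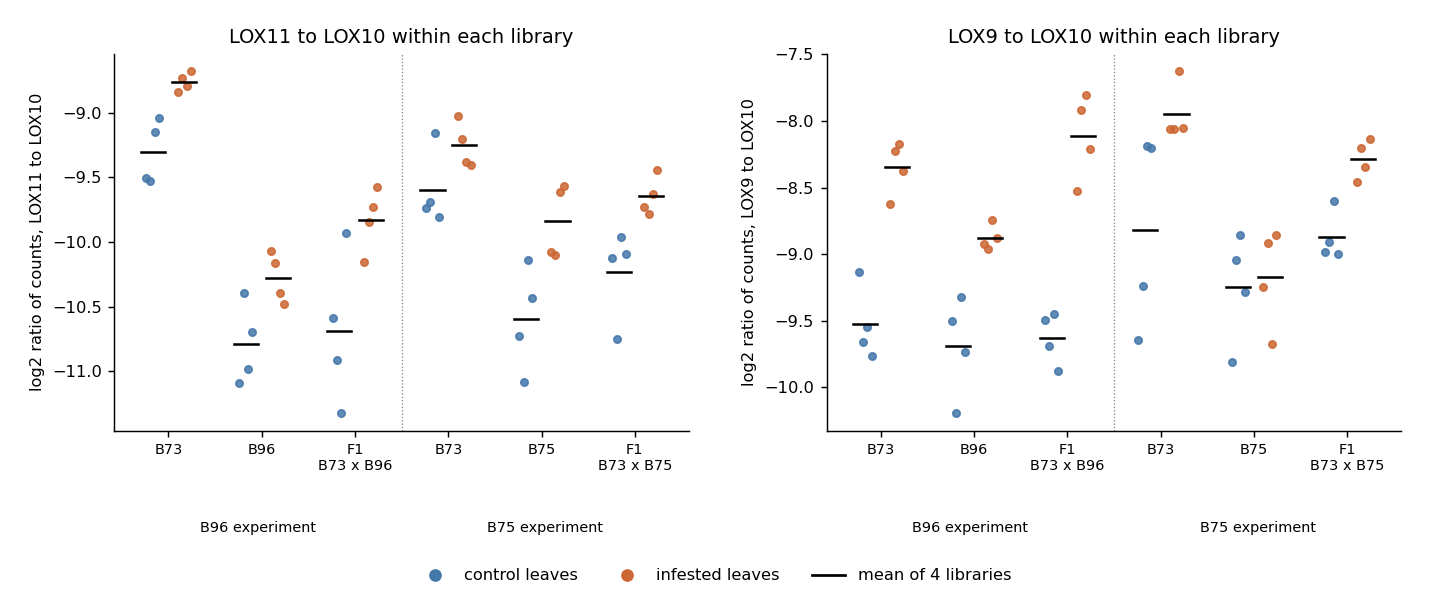
Log2 ratios of the counts of LOX9 to LOX10 and of LOX11 to LOX10 within each library (points), control beside infested leaves in 6 sets of plants. The infested mean is above the control mean in all 6 for both ratios, with a gap between the LOX9 to LOX10 libraries in all but B75, where the means differ by 0.08.

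B75 and B73 differed in all 4 genes before infestation, which addresses the starting level of the resistant inbred. LOX11 was at 0.312 of the B73 level in uninfested B75 (log2 -1.68 ± 0.21, edgeR adjusted p = 4.8e-07), LOX9 at 0.439 (-1.19 ± 0.22, 9.8e-05), LOX8 at 0.453 (-1.14 ± 0.18, 8.2e-06) and LOX10 at 0.616 (-0.70 ± 0.16, 0.00075). These 4 of 4 lower genes stand beside 29.3% of all features lower in B75.

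With mites, 2 of the 4 genes were still lower in B75 than in B73, beside 25.8% of all features. LOX9 was at 0.497 of the B73 level (log2 -1.01 ± 0.21, edgeR adjusted p = 3e-04) and LOX8 at 0.566 (-0.82 ± 0.17, 0.00032). LOX10 stood slightly higher in B75 (0.23 ± 0.16, edgeR adjusted p = 0.24) and LOX11 slightly lower (-0.34 ± 0.19, 0.14), neither past the threshold. Without B75 infested replicate 3, the highest of its group at 18.7 CPM, LOX11 was lower in B75 by the same test (-0.60, edgeR adjusted p = 0.0095).

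In uninfested leaves 1 of 4 genes was lower in B96, beside 32.2% of all features. This was LOX11, at 0.454 of the B73 level (log2 -1.14 ± 0.36, edgeR adjusted p = 0.0084). LOX8 (0.19 ± 0.21, edgeR adjusted p = 0.43), LOX9 (0.10 ± 0.21, 0.69) and LOX10 (0.30 ± 0.23, 0.26) missed the threshold.

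With mites, LOX8 was 1.75-fold (log2 0.81 ± 0.21, edgeR adjusted p = 0.0019) and LOX10 1.72-fold (0.78 ± 0.23, 0.006) higher in B96 than in B73. These 2 of 4 genes stand beside 28.2% of all features higher in B96. LOX9 differed by 0.23 ± 0.20 (edgeR adjusted p = 0.34). LOX11 was lower in B96 by 0.73 ± 0.34 on the log2 scale and missed the threshold (log2 -0.73, edgeR adjusted p = 0.069), which it passed in a fit of the groups compared alone (-0.69, edgeR adjusted p = 0.0076) in a single fit of all 48 libraries (-0.70, edgeR adjusted p = 0.03) and, narrowly, with the replicate number as a block (-0.67).

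Whether a line reacts more or less than B73 was tested as the difference of mite responses. In B75 the response of LOX11 exceeded that of B73 by 1.34 ± 0.28 on the log2 scale, 2.53-fold (edgeR adjusted p = 0.0042), and that of LOX10 by 0.93 ± 0.23, 1.9-fold (edgeR adjusted p = 0.012). These 2 of 4 genes stand beside 6.53% of all features with a higher response in B75. Both genes started lower in B75 and ended without a called difference from infested B73. LOX8 (0.32 ± 0.24, edgeR adjusted p = 0.44) and LOX9 (0.18 ± 0.30, 0.77) missed the threshold.

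None of the 4 genes had a called difference between the responses of B96 and B73. In this comparison 4975 of 22569 features were called in either direction, and 10.4% of all features were higher in B96. The difference was 0.61 ± 0.29 for LOX8 (edgeR adjusted p = 0.14), 0.48 ± 0.32 for LOX10 (0.31), 0.41 ± 0.49 for LOX11 (0.6) and 0.13 ± 0.29 for LOX9 (0.82). At an unadjusted p under 0.05 edgeR gave 1 of 4 genes, LOX8 (0.047), and DESeq2 called 0 of 4. By edgeR's p LOX8 ranked only 7718 of 22569 features in this comparison. With the replicate number as a block edgeR called LOX8 (0.66, adjusted p = 0.022). The comparisons of B96 and B75 use separate B73 libraries and were not tested against each other.

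The F1s asked how levels and responses pass from the inbreds to their cross. Against B73, the response of the B96 F1 differed by 0.18 to 0.55 on the log2 scale with 0 of 4 genes called by edgeR, beside 0.151% of all features, and the largest difference was that of LOX9 (0.55 ± 0.29, edgeR adjusted p = 0.66). Against B96 it differed by 0.43 ± 0.29 for LOX9 and -0.43 ± 0.29 for LOX8 (edgeR adjusted p = 0.39 each), by -0.30 ± 0.32 for LOX10 (0.61) and by -0.04 ± 0.50 for LOX11 (0.99), with 8.96% of all features called.

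The B75 F1 had estimated responses between those of its parents for LOX8, LOX10 and LOX11 and above both for LOX9. None of these differences was called, and for LOX8 and LOX9 the sign against B75 changed when single libraries were left out. The response of this F1 exceeded that of B73 by 0.52 ± 0.23 for LOX10 (edgeR adjusted p = 0.43), 0.76 ± 0.27 for LOX11 (0.28), 0.27 ± 0.24 for LOX8 (0.81) and 0.28 ± 0.30 for LOX9 (0.86), beside 0.877% of all features called. Relative to B75 it differed by -0.41 ± 0.23 for LOX10 (edgeR adjusted p = 0.34), -0.58 ± 0.29 for LOX11 (0.28), -0.05 ± 0.25 for LOX8 (0.96) and 0.10 ± 0.31 for LOX9 (0.92), beside 2.46% of all features called. At an unadjusted p under 0.05, edgeR gave LOX10 (0.031) and LOX11 (0.011) in the comparison of the B75 F1 with B73 and 0 genes in the other comparisons of F1 responses with parents, and DESeq2 called 0 of 4 genes in each of them. By edgeR's p, LOX10 ranked 1614 and LOX11 906 of 22572 features for the B75 F1 against B73.

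F1 levels were also set against the mid-parent, the mean of both inbreds on the log2 scale. In the uninfested B96 F1, 33.6% of all features departed from it, and the median over all features was 0.11. LOX8 (-0.08 ± 0.18, edgeR adjusted p = 0.77), LOX9 (-0.03 ± 0.19, 0.91) and LOX10 (0.02 ± 0.20, 0.96) lay close to it, and LOX11 below it (-0.49 ± 0.32, 0.25). Without both replicate 4 libraries LOX11 was lower than the mid-parent (-1.14, edgeR adjusted p = 0.0012), and the same was found with control replicate 4 alone left out (-1.14, edgeR adjusted p = 0.0048). The place of LOX11 in this F1 against its mid-parent turned on that library.

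In the infested B96 F1 the differences from the mid-parent were 0.46 ± 0.17 for LOX9 (edgeR adjusted p = 0.053), -0.20 ± 0.18 for LOX8 (0.45), -0.05 ± 0.20 for LOX10 (0.89) and -0.32 ± 0.29 for LOX11 (0.47), beside 23.4% of all features called. Without both replicate 4 libraries LOX8 (-0.48, edgeR adjusted p = 0.048) and LOX11 (-0.66, edgeR adjusted p = 0.03) were lower than the mid-parent, and LOX9 was closer to it (0.30, edgeR adjusted p = 0.24).

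LOX9 leaned the same way in the other cross. In the infested B75 F1 it stood 0.51 ± 0.18 above the mid-parent (edgeR adjusted p = 0.058), with LOX8 at 0.17 ± 0.15 (0.52), LOX10 at 0.24 ± 0.14 (0.28) and LOX11 at 0.12 ± 0.16 (0.73), beside 12.8% of all features called. LOX9 was the single gene of the 4 at an unadjusted edgeR p under 0.05 in either infested F1, with 0.013 in the B96 F1 and 0.0079 in the B75 F1. By p it ranked 5428 of 22569 features in the B96 F1 and 3080 of 22572 in the B75 F1. Features called in these comparisons were mostly higher, at 3738 against 1544 lower in the B96 F1 and 2472 against 419 in the B75 F1. DESeq2 called 0 of 4 genes in both. Whether LOX9 passed the threshold depended on the setting. When each library was left out in turn, its difference ranged from 0.30 to 0.64 in the B96 F1 (edgeR adjusted p from 0.0047 to 0.26) and from 0.46 to 0.58 in the B75 F1 (0.03 to 0.17), and it passed in 8 and 6 of 24 fits. It also passed in the B96 F1 with upper-quartile scaling (0.49), no filter (0.49), a single fit of all 48 libraries (0.47) and the replicate number as a block (0.44), and in the B75 F1 with no filter (0.55), the single fit (0.52), the block (0.52) and only the groups compared (0.53). In uninfested leaves the same F1 stood at 0.33 ± 0.19 for LOX9 (edgeR adjusted p = 0.23), 0.19 ± 0.14 for LOX10 (0.36), 0.06 ± 0.15 for LOX8 (0.82) and 0.03 ± 0.18 for LOX11 (0.94), where 19.8% of all features departed from the mid-parent.

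**Figure D4:**
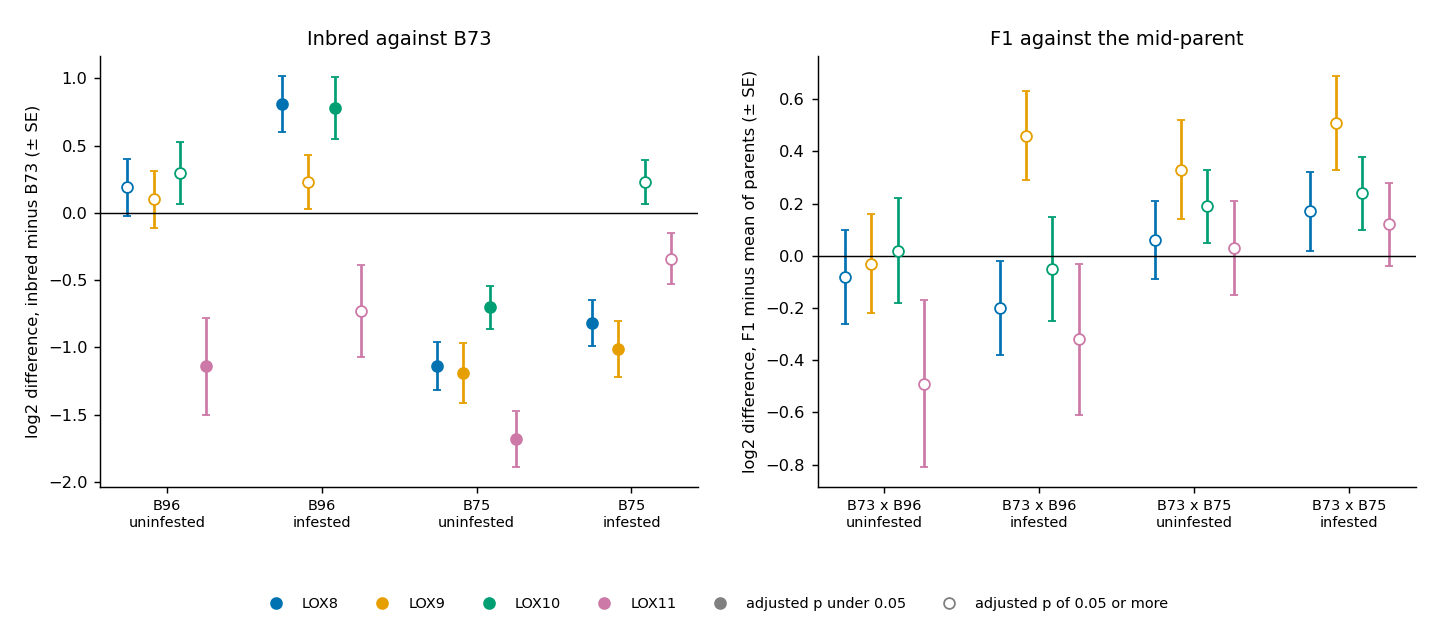
Log2 differences with SE bars of each resistant inbred from B73 of its own experiment (left) and of each F1 from its mid-parent (right), in uninfested and infested leaves, with open points where the adjusted p was 0.05 or more. All 4 genes are below 0 in uninfested B75, LOX8 and LOX10 are above 0 in infested B96, at 0.81 and 0.78, and every mid-parent point is open, with LOX9 highest in both infested F1s, at 0.46 and 0.51.

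B73 was grown and infested in both experiments, which shows how far these genes repeat. The mite response of the B75 experiment minus that of the B96 experiment was 0.21 ± 0.24 for LOX8, -0.29 ± 0.35 for LOX9, 0.08 ± 0.26 for LOX10 and -0.11 ± 0.27 for LOX11 (edgeR adjusted p = 1 for each). The test called 0% of all features, with 692 of 21017 at an unadjusted p under 0.05, and DESeq2 called 6. In uninfested leaves the difference was 0.61 ± 0.25 for LOX9 (edgeR adjusted p = 0.34), -0.45 ± 0.19 for LOX11 (0.35), 0.20 ± 0.17 for LOX8 (0.71) and -0.15 ± 0.18 for LOX10 (0.82), with 0.2% of all features called. Infested leaves gave -0.55 ± 0.19 for LOX11 (edgeR adjusted p = 0.16), 0.41 ± 0.17 for LOX8 (0.22), 0.32 ± 0.24 for LOX9 (0.49) and -0.07 ± 0.18 for LOX10 (0.87), with 0.347% of all features called. In uninfested leaves LOX9 (0.029, rank 1792 of 21017 features) and LOX11 (0.034, rank 2004) had an unadjusted edgeR p under 0.05. In infested leaves these were LOX11 (0.0094, rank 1223) and LOX8 (0.029, rank 2770). Over all features DESeq2 called 420 in uninfested and 696 in infested leaves.

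Across the 12 group means the 4 genes moved together, with Pearson correlations of log2 CPM from 0.77 for LOX10 and LOX11 to 0.92 for LOX8 and LOX10. Within groups, as deviations of the 48 libraries from their group means, the pair LOX10 and LOX11 had the highest correlation, at 0.72, and the other pairs lay between 0.25 and 0.39. The group means share the split by mites, and the 4 genes of a library share its scaling. LOX10 and LOX11 are close homologues whose reads may be shared, and sharing in other pairs was not tested, so these values are descriptions.

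The feature whose pattern was most like that of a member was sought among 17930 features with at least 5 CPM in their highest group, over the 12 group means. It was Zm00001d048702 for LOX10 (Pearson correlation 0.987), which ran from 85.3 CPM in uninfested B75 to 2800 CPM in infested B96. For LOX11 it was Zm00001d006860 (0.974), from 51.3 CPM in uninfested B75 to 268 CPM in infested B73 of the B96 experiment. Zm00001d017874 was most like LOX8 (0.982) and Zm00001d024204 most like LOX9 (0.979). The second most alike features followed closely, at 0.980, 0.978, 0.984 and 0.959 for LOX8, LOX9, LOX10 and LOX11, and the median over all features was 0.003 to 0.012.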

How the data were processed

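RNA of leaf sections was read from 48 stranded poly(A) libraries, per the labels' protocols. The deposited values are whole-number counts for each feature in each library, as the authors made them. The submitters' processing notes name STAR 2.5.3a, HTSeq 0.9.1 and the genome build B73 RefGen_v4. The sources used here do not give the counting options. The 5 summary lines, with a mean of 17.6% of reads (12.7 to 28%), were kept out of library sizes and tests. No libraries of a group looked like a single one deposited again (lowest chi-square per feature 4.82).

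Fits were made per experiment, with 24 libraries and group means, in R 4.3.3 with edgeR 4.0.16 (filterByExpr with a minimum count of 10, TMM scaling, quasi-likelihood test, Benjamini-Hochberg adjustment over all features). This tested 22569 features for the B96 and 22572 for the B75 experiment, and a further fit of the 16 B73 libraries tested 21017. A gene past an adjusted p of 0.05 is said to have risen or fallen. SE is the size of the log2 fold change divided by the root of the test's F value. CPM use TMM-scaled sizes over all 48 libraries. Alternatives were DESeq2 1.42.0, other scalings, no filter, other groupings of the libraries in a fit, the replicate number as a block, a linear mid-parent, a count of 1 added to ratios, and leaving out each library. Ratios were tested by exact permutation.

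The 4 genes and all lists were chosen with earlier results of these data known. The rule for named features took the 4 genes and, for each, the feature with the highest Pearson correlation over the group means. A list of other jasmonate and volatile pathway genes and a list of leaf markers gave no value, because the reference table used here (RefSeq, a later assembly) matched 0 of the Zm identifiers. For the same reason no positions, lengths or sequences are given. The tissue label was not checked against markers.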

Additional observations from a re-analysis of the deposited data

Results flagged for a closer look

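A single library lay far from the other 3 of its group in 3 of 48 combinations of gene and group, by Dixon's test at the 95% level, which chance alone passes in about 5% of groups. LOX10 in the infested B96 F1 was at 19036 CPM in replicate 4 and at 10849.9 to 11951 CPM in the others. LOX11 in the uninfested B96 F1 was at 11.8 CPM in replicate 4 and at 3.05 to 4.26 CPM in the others. LOX8 in uninfested B73 of the B96 experiment was at 29.3 CPM in replicate 1 and at 37.6 to 38.3 CPM in the others.

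The mite responses of B75 and B73 differed by the test of the difference itself for LOX10, by 0.93 on the log2 scale (edgeR adjusted p = 0.012), and for LOX11, by 1.34 (edgeR adjusted p = 0.0042).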

How the results depend on the processing

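Of 24 mite responses 23 passed the threshold with median-of-ratios size factors, upper-quartile scaling, no filter and the replicate block, 24 with DESeq2 and with a single fit of 48 libraries, and 22 with only the groups compared. LOX10 in B73 of the B96 experiment passed with DESeq2 (0.48), with the single fit (0.49) and without both B96 F1 replicate 4 libraries (0.51), and LOX10 in that F1 missed it with only the groups compared (0.71). LOX11 in infested B96 against B73 passed at -0.67 with the replicate block, -0.69 with only the groups compared, -0.70 in the single fit and -0.72 without both F1 libraries. The count of features whose response differed between the B96 F1 and B73 was 34, and 57 with no filter, 65 with the replicate block, 84 in the single fit and 162 with DESeq2. DESeq2 also gave 419 in place of 198 for the B75 F1 against B73, 1182 in place of 556 against B75, and 420 and 696 in place of 42 and 73 for uninfested and infested B73 between experiments. The uninfested B75 F1 departed from the mid-parent at 2935 features in place of 4474 with only the groups compared. Shares of all features called also moved with single libraries. Between experiments the 73 features of infested B73 became 0 without infested replicate 3 or 6 and 273 without infested replicate 4, and the 42 of uninfested B73 became 1 without control replicate 2 and 99 without control replicate 4. For F1 responses the 34 of the B96 F1 against B73 became 19 without infested F1 replicate 3 and 56 without replicate 1, the 2023 against B96 became 1221 without B96 control replicate 3, the 198 of the B75 F1 against B73 became 128 without B73 control replicate 5, and the 556 against B75 became 201 without B75 infested replicate 1 and 1360 without control replicate 3. The 2077 of B75 against B73 became 1271 without B75 control replicate 4.

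The labels state a randomized block layout but not that a replicate number marks a block. Same-numbered control and infested libraries of a line correlated at -0.201 to 0.441. Across all pairs of different groups of an experiment, same-numbered libraries had medians of 0.118 in the B96 and 0.115 in the B75 experiment. For libraries of other numbers these medians were -0.041 and -0.031. Library codes in the labels run consecutively within a number across the groups of an experiment. The numbers may therefore mark blocks, but not every pair correlated, and the block was kept as an alternative. With the replicate block the B96 minus B73 response difference of LOX8 passed at 0.66 (edgeR adjusted p = 0.022), as did LOX9 against the mid-parent in the infested B96 F1 (0.44) and B75 F1 (0.52) and LOX11 in infested B96 against B73. No other call of the 4 genes changed with it. The block could not be fitted to the level differences of B73 between experiments.

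Leaving out each library moved mite responses of the B96 F1 between 0.46 and 0.91 (LOX10), 0.59 and 1.04 (LOX8) and 1.08 and 2.07 (LOX11), and others between 0.41 and 0.61 (LOX10), 0.52 and 0.82 (LOX8) and 0.92 and 1.17 (LOX11), the last 3 in B73 of the B96 experiment. LOX11 with mites moved between -0.85 and -0.60 in B96 and between -0.60 and -0.27 in B75, each against B73. The LOX9 response difference moved between -0.05 and 0.24 for B96 and between -0.06 and 0.33 for B75. Uncalled values that changed sign in this way had these ranges. Response differences in the B96 F1 were -0.09 to 0.35 (LOX8) and -0.04 to 0.40 (LOX10) against B73 and -0.38 to 0.61 (LOX11) against B96. In the B75 F1 against B75 they were -0.20 to 0.11 (LOX8) and -0.03 to 0.22 (LOX9). Mid-parent differences were -0.17 to 0.01 (LOX8), -0.14 to 0.06 (LOX9) and -0.21 to 0.11 (LOX10) in the uninfested and -0.27 to 0.04 (LOX10) in the infested B96 F1, and -0.01 to 0.14 (LOX8) and -0.11 to 0.10 (LOX11) in the uninfested B75 F1. B73 between experiments gave -0.02 to 0.20 (LOX10) and -0.23 to 0.02 (LOX11) for responses and -0.17 to 0.03 (LOX10) for infested levels. Ratio changes were -0.11 to 0.25 (LOX9 to LOX10, B75), -0.01 to 0.29 and -0.10 to 0.18 (LOX8 to LOX10, B96 F1 and B75 F1) and -0.08 to 0.28 (LOX11 to LOX8, B73 of the B75 experiment).

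Other values that reversed were near 0 and uncalled, and the cause was not tested. LOX10 in the uninfested B96 F1 against the mid-parent became -0.04 with size factors and with DESeq2, -0.02 with the replicate block and the linear mid-parent, -0.01 in the single fit and -0.21 without both F1 libraries, where F1 response differences also changed sign for LOX8 against B73 (-0.05) and LOX11 against B96 (0.27). LOX9 there was 0.00 with upper-quartile scaling. In the B75 F1, LOX8 against the B75 response was 0.00 with size factors and DESeq2 and 0.03 with no filter and only the groups compared, and against the uninfested mid-parent LOX11 was -0.02 with size factors and DESeq2 and -0.22 on the linear scale, and LOX8 -0.07 on it.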
